A study of Mus musculus with 4 samples.

Results

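The genes for 10 subunits of the AMPA and NMDA receptors, the ion channels that carry most excitatory signals between neurons of the brain, were examined in the cerebellum of *Kdm3b*+/- and WT mice. The members are *Gria1*, *Gria2*, *Gria3* and *Gria4* for the AMPA receptor and *Grin1*, *Grin2a*, *Grin2b*, *Grin2c*, *Grin2d* and *Grin3a* for the NMDA receptor. They were taken by NCBI gene number, and all 10 were found among the 24532 genes of the deposited tables, each with 1 entry per library. Bulk RNA came from granule-cell-enriched (GCE) tissue that was cut by hand from slices of the cerebellar vermis of 2 WT and 2 *Kdm3b*+/- animals, and each animal gave 1 library. The mice were adult males, and the WT mice were littermates of the mutants. *Kdm3b*+/- mice carry the gene-trap vector pGT0lxf in a single allele of *Kdm3b*, which encodes a histone H3 demethylase, and this allele is present in all tissues, not in the granule cells alone. They descend from a single embryonic stem cell line that was crossed to C57Bl/6N and then to C57Bl/6J mice.

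AMPA receptors are assemblies of GluA subunits and carry the fast part of the synaptic current. The GluA2 subunit, encoded by *Gria2*, makes the channel nearly impermeable to calcium once its messenger RNA has been edited. NMDA receptors combine the obligatory GluN1 subunit with GluN2 or GluN3 subunits, open only when glutamate and a co-agonist are bound and the membrane is depolarized, and let calcium in. In the cerebellum, granule cells receive glutamate from mossy fibers, and they exchange GluN2B for GluN2A and GluN2C as they mature. Purkinje cells express AMPA receptors on the synapses with parallel fibers, and Bergmann glia express AMPA receptors that lack GluA2.

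The members are paralogs, so the coding bases of a highly conserved part of the channel, the third membrane segment, are shown first, for 8 of the members, to let a reader see how far the genes can be told apart by their reads. Capitals mark the bases that differ from *Gria2* (GENCODE transcripts of GRCm38, coding strand).
Gria1: tcAtacacAgcCaacCtGgctgccttc
Gria2: tcctacacggctaacttagctgccttc
Gria3: tcctacacTgcAaacCtTgctgcTttc
Gria4: tcctacacTgctaaTCtGgctgcAttc
Grin1: tcctacacTgcCaacCtGgcAgccttc
Grin2a: AGTtacacAgcCaacCtGgctgccttc
Grin2c: AGctacacggcCaaTCtGgcAgccttc
Grin3a: AcAtacacAgcGaacttGgctgcTGtc
These 8 sequences all differed from each other, and 16 of the 27 positions were identical in all of them. The segment lies within a single coding exon in each of these genes. In *Gria2* this is exon 12 of 16 (chr3:80702569-80702595, reverse strand), and in *Grin2c* it is exon 11 of 15 (chr11:115253749-115253775, reverse strand). Over all annotated transcripts of the members, the longest run of identical bases in any of the 45 pairs was 59, between *Gria3* and *Gria4*, followed by 56 between *Gria2* and *Gria3*. The read length is not given in the sources used here.

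A second segment, the pore loop, is shown because it holds the codon that is edited in *Gria2* RNA. That codon is in capitals for the 4 AMPA receptor genes.
Gria1: atgCAGcaaggatgtgacatt
Gria2: atgCAGcaaggatgcgatatt
Gria3: atgCAGcaaggatgtgatatt
Gria4: atgCAAcaaggatgtgacatt
In *Gria2* it lies in exon 11 (chr3:80706896-80706916, reverse strand). The genome of all 4 genes encodes glutamine there, and editing of the middle base turns it into arginine in *Gria2* RNA. The deposited tables hold 1 value per gene, so edited and unedited RNA, and the alternative flip and flop exons of the AMPA receptor genes, are summed in every value below.

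Levels are given in TPM, transcripts per 1000000, a unit that is scaled to gene length and to the same total in each library, so that genes can be compared within a library. Where values stand in pairs, the first is of mouse 1 and the second of mouse 2 of the genotype. Between 4.92 and 6.69 gigabases were aligned per library. *Kdm3b* itself was measured at 9.10 and 10.996 TPM in WT and at 8.30 and 7.90 TPM in *Kdm3b*+/- animals. Both mutant values lay below both WT values, with a log2 fold change of −0.27 and an adjusted p of 0.424 in limma. The granule cell markers fixed for the analysis were all detected, 12 of 12, led by *Gabra6*, a GABA-A receptor subunit of granule cells, with a TPM between 984 and 1200. Summed, they reached 3954 and 4814 TPM in WT animals, against 3974 and 4093 TPM in the mutants. The tissue also held oligodendrocyte RNA, with summed TPM from 14957 to 17884 over 8 markers led by *Mbp*, and RNA of Bergmann glia and astrocytes, from 1132 to 1379 over 10 markers led by *S100b*. Choroid plexus markers, of which *Ttr* was the highest, summed to at most 1.30.

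The members fell into 3 tiers of expression. *Gria2*, *Gria4*, *Grin2c* and *Grin1* had a TPM between 53.9 and 223 in every library, *Grin2a*, *Gria3* and *Gria1* between 5.12 and 13.2, and *Grin3a*, *Grin2b* and *Grin2d* at most 1.98, near the limit set for testing, a mean TPM of 1. The order of mean TPM over the 4 libraries was *Gria2* (192), *Gria4* (123), *Grin2c* (115), *Grin1* (70.2), *Grin2a* (11.9), *Gria3* (7.42), *Gria1* (7.25), *Grin3a* (1.77), *Grin2b* (0.647) and *Grin2d* (0.585). Neighbors in this order were called different where their ranges over the 4 libraries did not overlap. By this rule *Gria2* stood above *Gria4*, *Grin2c* above *Grin1*, *Grin1* above *Grin2a*, *Gria1* above *Grin3a*, and *Grin3a* above *Grin2b*. The ranges of *Gria4* and *Grin2c* overlapped, as did those of *Grin2a* and *Gria3*, of *Gria3* and *Gria1*, and of *Grin2b* and *Grin2d*.

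**Figure D1:**
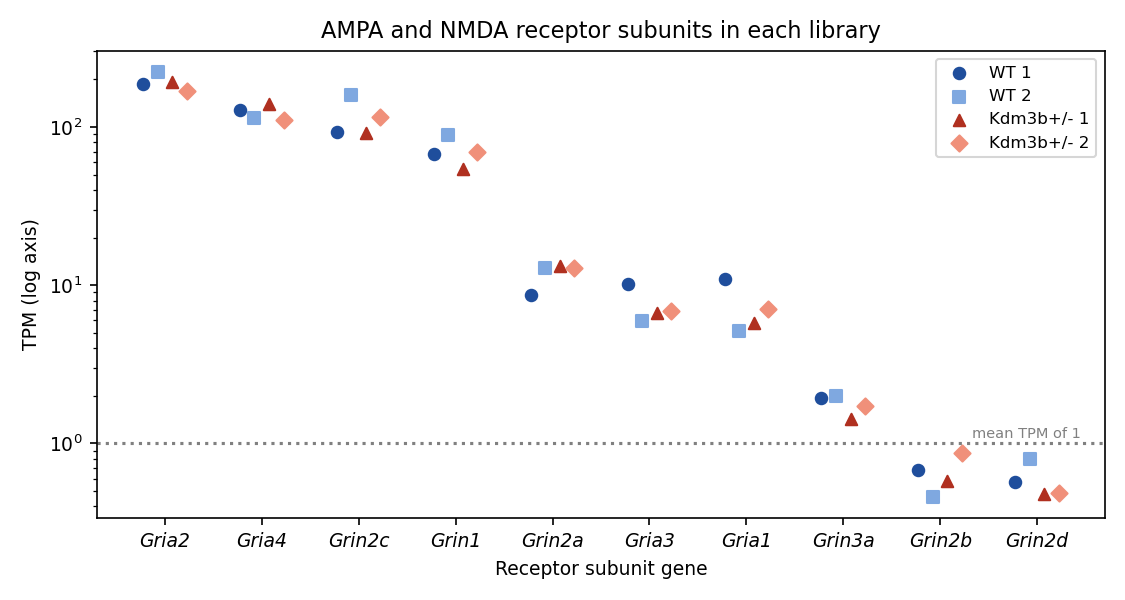
TPM (log axis) of the 10 receptor subunit genes in each of the 4 libraries, ordered by mean TPM, with 1 point per mouse and a dotted line at a TPM of 1. The 4 genes on the left lie between 53.9 and 223, the next 3 between 5.12 and 13.2 and the last 3 at or below 1.98, and WT mouse 1 is the highest of the 4 mice in *Gria1* and *Gria3* and the lowest in *Grin2a*.

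Among the AMPA receptor genes, *Gria2* (NCBI gene 14800, chromosome 3, 80684936 to 80802791) stood at 187 and 223 TPM (WT) and 192 and 168 TPM (*Kdm3b*+/-). The value of *Kdm3b*+/- mouse 1 lay between the WT values, so the groups overlapped. *Gria4* (NCBI gene 14802, chromosome 9, 4417893 to 4796234), which encodes the GluA4 subunit of granule cells and Bergmann glia, had 129 and 114 TPM (WT) against 140 and 111 TPM (mutant). The highest and the lowest of its 4 values were both from *Kdm3b*+/- mice.

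*Gria1* (NCBI gene 14799, chromosome 11, 57011618 to 57330244) encodes GluA1, a subunit of Bergmann glia in this tissue, and was measured at 10.99 and 5.12 TPM in WT and at 5.80 and 7.10 TPM in *Kdm3b*+/- animals. *Gria3* (NCBI gene 53623, chromosome X, 41401301 to 41678601) encodes GluA3, which Purkinje cells express, and had 10.2 and 5.98 TPM (WT) against 6.63 and 6.91 TPM (mutant). In both genes WT mouse 1 was the highest and WT mouse 2 the lowest of the 4, and the values of both *Kdm3b*+/- mice lay between them. The WT mice differed from each other by 2.15-fold in *Gria1* and by 1.70-fold in *Gria3*.

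Among the NMDA receptor genes, *Grin2c* (NCBI gene 14813, chromosome 11, 115249169 to 115267243) encodes GluN2C, the GluN2 subunit of mature granule cells. It read 92.6 and 158 TPM in WT and 91.7 and 116 TPM in *Kdm3b*+/- animals. WT mouse 2 stood above the other 3 libraries, and WT mouse 1 lay between the mutant mice. *Grin1* (NCBI gene 14810, chromosome 2, 25291177 to 25319187), for the obligatory subunit GluN1, had 68.0 and 89.4 TPM (WT) against 53.9 and 69.4 TPM (mutant). WT mouse 2 was again the highest, and the groups overlapped through WT mouse 1 and *Kdm3b*+/- mouse 2.

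*Grin2a* (NCBI gene 14811, chromosome 16, 9577710 to 9992533), for GluN2A, reached 8.65 and 12.8 TPM in WT animals, against 13.2 and 12.9 TPM in the mutants. Both mutant values lay above both WT values, but WT mouse 2 and *Kdm3b*+/- mouse 2 were nearly equal. *Grin3a* (NCBI gene 242443, chromosome 4, 49661611 to 49845769), for the GluN3A subunit that lowers calcium entry, had 1.95 and 1.98 TPM (WT) against 1.42 and 1.73 TPM (mutant), and both mutant values were below both WT values.

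*Grin2b* (NCBI gene 14812, chromosome 6, 135729805 to 136173511), for GluN2B, the GluN2 subunit of immature granule cells and of the forebrain, had 0.676 and 0.462 TPM (WT) against 0.576 and 0.877 TPM (mutant). *Grin2d* (NCBI gene 14814, chromosome 7, 45832483 to 45866681), for GluN2D, had 0.574 and 0.799 TPM (WT) against 0.483 and 0.485 TPM (mutant). Neither reached a mean TPM of 1, so they were not tested. In *Grin2b* the groups overlapped, and in *Grin2d* both mutant values lay below both WT values. The read coverage behind these genes was thin, between 1.14 and 2.68 reads per exonic base for *Grin2b* and between 1.27 and 1.97 for *Grin2d*. It was between 3.75 and 5.24 for *Grin3a*, between 9.07 and 17.4 for *Gria1*, between 205 and 391 for *Grin2c* and between 242 and 324 for *Gria2*.

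The ratio of deposited coverage to FPKM (fragments per kilobase and per 1000000 fragments) was the same for most genes of a library, 76.5% to 76.8% of the entries with an FPKM above 0.05. Set to 1 at that common value, the ratio was 1 within rounding for *Grin2a*, *Grin2b*, *Grin2c* and *Grin2d*. It was lower for the AMPA receptor genes, between 0.470 and 0.546 in *Gria4*, between 0.584 and 0.595 in *Gria2*, between 0.714 and 0.721 in *Gria1* and between 0.777 and 0.915 in *Gria3*. *Grin1* had between 0.901 and 0.906. Levels of *Gria2* and *Gria4* against the GluN2 genes therefore depend on the deposited column that is read: the sum of the AMPA receptor genes was between 1.32 and 2.14 times that of the NMDA receptor genes in TPM and between 0.791 and 1.21 times in coverage.

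The make-up of the receptors was then described as the share of each gene in the summed TPM of its class. *Gria2* held 55.5% and 64.0% of the AMPA receptor RNA of WT mice and 55.8% and 57.3% of that of the mutants. *Gria4* held 38.2% and 32.8% against 40.6% and 37.9%. *Gria1* held 3.27% and 1.47% against 1.68% and 2.42%, and *Gria3* held 3.02% and 1.72% against 1.92% and 2.35%. For none of these 4 shares of TPM were the genotypes apart, and WT mouse 2 had the highest share of *Gria2* and the lowest of the other subunits. In coverage in place of TPM, the share of *Gria4* was 32.4% and 30.9% (WT) against 35.1% and 33.7% (mutant), without overlap and with an exact permutation p of 0.333, the smallest possible, while the other 3 shares overlapped. *Gria2* RNA exceeded that of the other AMPA receptor genes together in all 4 libraries, at 1.25 and 1.78 times their sum (WT) and at 1.26 and 1.34 times their sum (*Kdm3b*+/-).

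*Grin2c* made up most of the GluN2 RNA. Its share was 90.3% and 91.8% for WT (mean 91.1%, SD 1.04, n = 2) and 86.5% and 89.1% for *Kdm3b*+/- animals (mean 87.8%, SD 1.82, n = 2). *Grin2a* accounted for most of the remainder, with 8.44% and 7.45% (mean 7.94%, SD 0.696, n = 2) against 12.5% and 9.88% (mean 11.2%, SD 1.85, n = 2). *Grin2b* held between 0.268% and 0.673%, and *Grin2d* between 0.372% and 0.560%. The shares of *Grin2c* and *Grin2d* were lower and that of *Grin2a* was higher in both *Kdm3b*+/- mice than in either WT mouse.

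The ratio of *Grin2c* to *Grin2a* was 10.7 and 12.3 for WT and 6.92 and 9.02 for the mutants, a mean lower by 3.54 in the mutants. The SD within the groups was 1.14 and 1.48, and a two-sided exact permutation test gave p = 0.333, the smallest p that 2 mice against 2 allow. Corrected for transcript length and GC content, a step that was chosen for this ratio after seeing the data, it was 10.3 and 10.9 against 8.13 and 9.03, so that the groups did not overlap and the means differed by −2.00. Over the 12 shares and ratios that were compared, 4 did not overlap between the genotypes, and these share the same *Grin2a*, *Grin2c* and *Grin2d* values. In the TPM of single genes, the groups did not overlap for 51.3% of all tested genes, so this count does not set the shares and ratios apart. The adjusted p was 1 for all 12. *Grin1* RNA was less abundant than the summed GluN2 RNA in all 4 libraries, at 0.663 and 0.519 of it (WT) and 0.509 and 0.533 of it (*Kdm3b*+/-), and the groups overlapped.

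**Figure D2:**
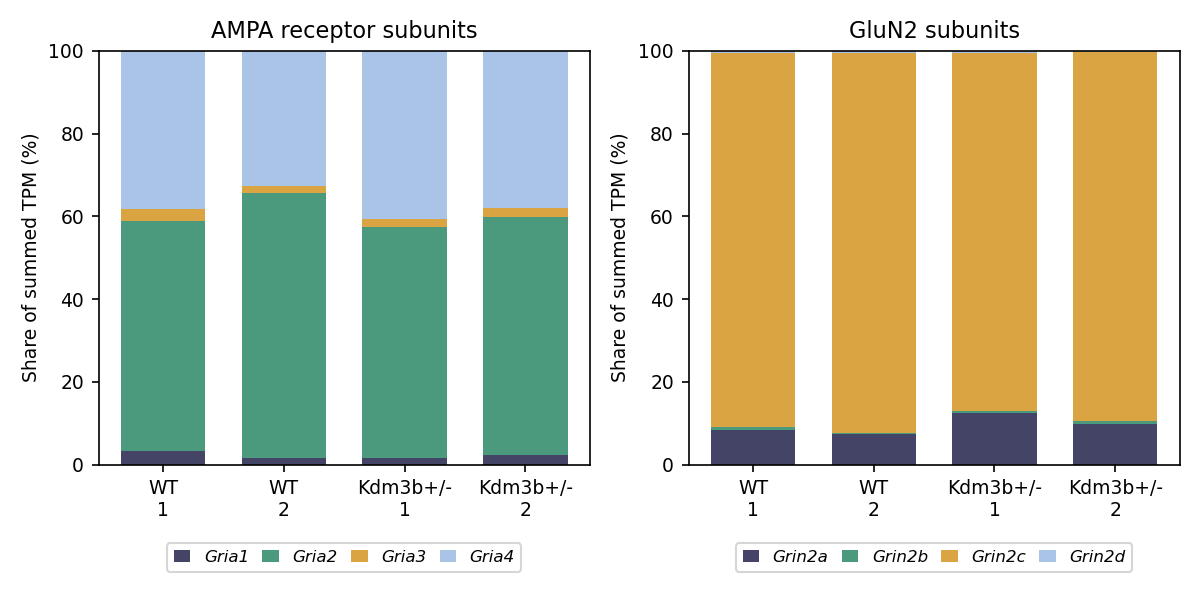
Share (%) of each gene in the summed TPM of the 4 AMPA receptor genes (left) and of the 4 GluN2 genes (right), with 1 bar per mouse. *Gria2* and *Gria4* fill most of each left bar and *Grin2c* most of each right bar, and the *Grin2a* block at the base of the right bars is 12.5% and 9.88% in the *Kdm3b*+/- mice against 8.44% and 7.45% in the WT mice.

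To ask whether loss of 1 *Kdm3b* allele changed these genes, the genotypes were compared in limma on the log2(TPM + 1) scale over the 13652 genes whose TPM averaged 1 or more. A gene was called differentially expressed (DEX) if its p, adjusted by the Benjamini-Hochberg method, was under 0.05 and its levels differed by more than 1.2-fold. None of the 8 members that were tested was DEX, where 0.461% of all tested genes were (0.117% higher and 0.344% lower in *Kdm3b*+/- mice). None had an unadjusted p under 0.05 in this fit, against 17.0% of all tested genes. Their adjusted p ran from 0.358 to 0.902, and the 95% interval of the fold change included 1 for all 8. The groups did not overlap for 3 of the 10 members (lower in *Grin2d* and *Grin3a*, higher in *Grin2a*), against 51.3% of all tested genes (19.2% higher and 32.0% lower). Of these 3, *Grin2d* was below the TPM minimum and is not among the tested genes that give this share. With bulk RNA, fewer cells of a type cannot be told apart from less RNA per cell.

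With all 4 libraries, *Grin1* had the lowest fold change and the smallest p. It averaged 78.7 ± 15.2 TPM over WT and 61.7 ± 10.9 TPM over *Kdm3b*+/- animals (SD, n = 2 each), and the log2 fold change was −0.35 (SE 0.18, 95% interval −0.75 to 0.06, adjusted p = 0.358 from limma). In fold terms the interval ran from 0.593 to 1.04, and the log2 fold change was −0.09 once transcript length and GC content were corrected for. With a library left out it was between −0.54 (without WT mouse 1) and −0.15 (without WT mouse 2), and without WT mouse 2 *Gria1*, *Gria3* and *Grin1* were at −0.69, −0.52 and −0.15. *Grin2a* had the highest, 0.28 (95% interval −0.16 to 0.72, adjusted p = 0.48), with a TPM of 10.7 ± 2.97 against 13.1 ± 0.264 (SD, n = 2 each). It was 0.02 without WT mouse 1, where *Gria1* was the highest at 0.28, and 0.54 without WT mouse 2.

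*Grin2c* had a log2 fold change of −0.23 (95% interval −0.76 to 0.30, adjusted p = 0.641), and it was 0.00498 once length and GC content were corrected for. The limma fit put *Gria2* at −0.18 (95% interval −0.50 to 0.14) and *Gria4* at 0.05 (95% interval −0.30 to 0.39). These were the narrowest intervals of the members, and they include a fold change from 0.706 to 1.10 for *Gria2* and from 0.812 to 1.31 for *Gria4*.

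For *Gria1* the log2 fold change was −0.21 (95% interval −0.85 to 0.44), and without WT mouse 1 it was 0.28. *Gria3* had −0.18 (95% interval −0.69 to 0.33) and, without WT mouse 1, 0.16. *Grin2c* turned from −0.23 to 0.15 without WT mouse 2, and *Gria4* turned to −0.12 without *Kdm3b*+/- mouse 1 and to −0.04 without WT mouse 2. *Grin3a* had −0.21 (95% interval −0.64 to 0.22, adjusted p = 0.601), and at so low a TPM the pseudocount of 1 shrinks the fold change. Of the 8 tested members, 6 had a lower mean in *Kdm3b*+/- mice on the log2 scale, against 60.4% of all tested genes, and their median log2 fold change was −0.20, against −0.07 for all tested genes.

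**Figure D3:**
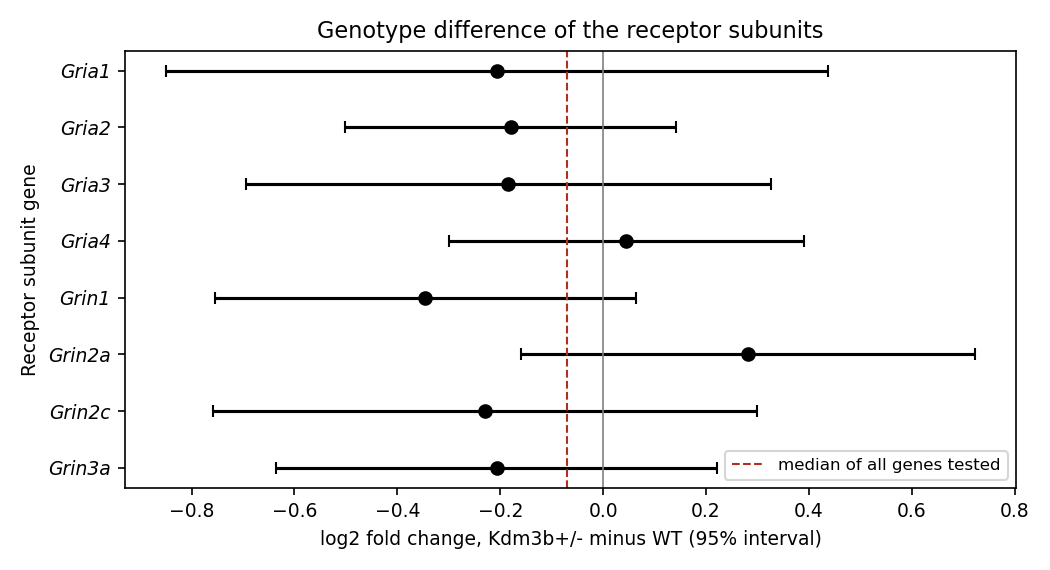
Log2 fold change (*Kdm3b*+/- minus WT) of the 8 members that were tested, from limma on log2(TPM + 1), with 95% intervals, a line at 0 and a dashed line at the median of all tested genes, −0.07. All 8 intervals cross 0, and those of *Gria1*, *Grin2c* and *Gria3* are the widest.

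In 9 of the 10 members the difference between the WT mice was larger than that between the genotype means on the log2(TPM + 1) scale, with *Grin3a* as the exception. Over all tested genes these differences were of like size, with a median of 0.193 between the WT mice and of 0.185 between the genotypes, both without sign. The count was not made over all tested genes, so it does not set the members apart. Markers of other cells also differed between the WT mice. The 12 Purkinje cell markers, led by *Pcp4*, summed to 1652 and 738 TPM (WT) and 928 and 751 TPM (*Kdm3b*+/-), so that WT mouse 1 stood above the other 3, as it did in *Gria1* and *Gria3*. None of these 12 markers was at 0 in all libraries. WT mouse 1 was also the highest in the summed Bergmann glia and astrocyte markers, with 1379 and 1220 TPM (WT) against 1132 and 1315 TPM (mutant). The summed granule cell markers were highest in WT mouse 2, which was also highest in *Grin2c*, *Grin1*, *Gria2*, *Grin3a* and *Grin2d*. *Gria4* and *Grin2a* were highest in *Kdm3b*+/- mouse 1, and *Grin2b* was highest in *Kdm3b*+/- mouse 2. Of the granule cell markers, only *Gabra6*, the most abundant, was highest in *Kdm3b*+/- mouse 1, and the others were highest in mouse 2 of either genotype. The inhibitory interneuron markers, led by *Gad1*, had a summed TPM of 204 and 156 against 126 and 129. The part of these cell types in the spread of the subunits was not tested.

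**Figure D4:**
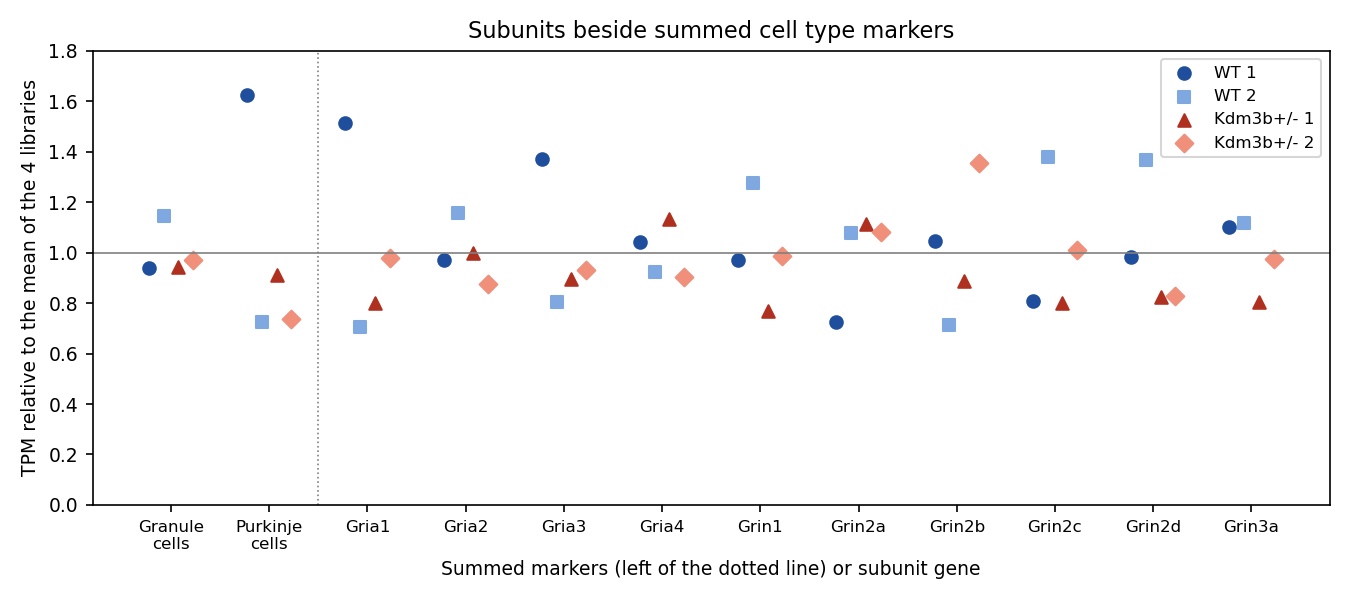
Summed TPM of the granule cell and Purkinje cell markers and TPM of the 10 subunit genes in each library, relative to the mean of the 4 libraries (grey line at 1), with 1 point per mouse. WT mouse 1 is highest for the Purkinje cell markers (1.62), *Gria1* (1.52) and *Gria3* (1.37), and WT mouse 2 for the granule cell markers (1.14), *Grin2c* (1.38), *Grin1* (1.27) and *Gria2* (1.16), while *Gria4* (1.13) and *Grin2a* (1.11) are highest in *Kdm3b*+/- mouse 1.

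Among the marker lists, 11 of 11 tested Purkinje cell markers had lower means in the mutants, with a median of −0.49 on the log2 scale and no DEX gene. Over all tested genes 60.4% had a lower mean, and the median was −0.07. The groups did not overlap for 5 of the 11 Purkinje cell markers (45.5%), against 51.3% of all tested genes. The means of the 12 granule cell markers were split, 6 lower and 6 higher, with a median of 0.00, and those of the 6 tested interneuron markers were all lower, with a median of −0.28. No gene of either list was DEX. Of the Bergmann glia and astrocyte markers 7 had lower and 3 had higher means, with 1 DEX gene, the water channel *Aqp4*, which rose. Of the oligodendrocyte markers 3 had lower and 5 had higher means, with 1 DEX gene, the myelin gene *Mobp*, which fell. The unipolar brush cell, oligodendrocyte precursor, microglia, endothelium and meningeal lists had medians of −0.02, −0.05, 0.04, −0.15 and −0.48, and no DEX gene.

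Of the members, 2 overlap other genes in the tables. *Grin1* shares its span with *Grin1os* on the opposite strand, which was measured at 5.49 and 7.34 TPM in WT and at 3.87 and 6.09 TPM in *Kdm3b*+/- animals, and touches *Lrrc26*, with a TPM of at most 0.677. Whether the libraries keep strand is not given in the sources used here, so reads of *Grin1* and *Grin1os* may not be separable. *Ppp3r2* lies within *Grin3a* and had a TPM of at most 0.225.

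Partners of the receptors were examined next, in 5 lists that were written for this comparison. Of 54 genes, 45 passed the TPM minimum, and none of them was DEX, while 0.461% of all tested genes were. An unadjusted p under 0.05 was found for 8 (17.8%), 1 higher and 7 lower in *Kdm3b*+/- mice, against 5.47% and 11.5% of all tested genes. A lower mean was found for 35 of the 45, against 60.4% of all tested genes, the share to set beside the counts of each list below. The groups did not overlap for 21 (46.7%), against 51.3% of all tested genes. Pairs of values below are in TPM, with WT before mutant mice.

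The auxiliary subunits, which bind AMPA receptors and tune their gating and traffic, had 8 tested genes of 12, of which 7 had lower means, with a median log2 fold change of −0.19. The most abundant was *Cnih2*, a cornichon protein, at 90.3 and 104 TPM (WT) and 94.4 and 98.7 TPM (mutant). *Cacng2*, which encodes stargazin, the auxiliary subunit that granule cells need for synaptic AMPA receptors, had 18.6 and 15.2 against 18.0 and 16.1. For neither did the groups separate. *Cacng3*, a relative of stargazin, had 32.6 and 32.8 against 26.9 and 29.3 (log2 fold change −0.21), and *Gsg1l*, which slows recovery from desensitization, had 23.1 and 30.4 against 18.9 and 23.4 (log2 fold change −0.32, the lowest of the list). The groups of *Cacng3* did not overlap and those of *Gsg1l* did, and the smallest adjusted p of the list was 0.39.

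Of the genes for AMPA receptor assembly, trafficking and clustering, 14 of 16 were tested, with lower means for 11 of them and a median log2 fold change of −0.22, and 4, all lower, had an unadjusted p under 0.05. *Nsf*, the ATPase that takes apart SNARE complexes and binds GluA2, had 468 and 468 TPM (WT) against 354 and 397 TPM (mutant) (log2 fold change −0.32, adjusted p = 0.246 from limma). Both mutant values were below both WT values. *Nptxr*, the neuronal pentraxin receptor, which helps to cluster AMPA receptors, had the lowest log2 fold change of the list, −0.68 (standard error 0.25, adjusted p = 0.24), from 21.0 and 31.3 TPM (WT) and 12.03 and 20.1 TPM (mutant). Without *Kdm3b*+/- mouse 2, in which it was the higher of the mutants, it was DEX (adjusted p = 0.0399). *Frrs1l*, which is needed for the assembly of AMPA receptors in the endoplasmic reticulum, had 184 and 244 against 183 and 180. *Porcn*, an acyltransferase that has been found in AMPA receptor complexes, had 295 and 359 against 267 and 275, and *Abhd6*, a lipase that limits surface AMPA receptors, had 118 and 124 against 139 and 125, the highest log2 fold change of the list at 0.13.

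Of the NMDA receptor partners and kinases, 12 of 15 were tested, 8 with lower and 4 with higher means, and with a median log2 fold change of −0.27. *Camk2b*, the beta subunit of the calcium/calmodulin kinase that binds NMDA receptors, reached 519 and 623 TPM in WT animals, against 345 and 428 TPM in the mutants. Its groups did not overlap, and on the log2 scale the mutants differed by −0.56 (SE 0.15, adjusted p = 0.152 from limma). Without *Kdm3b*+/- mouse 2 it was DEX, with −0.72 and an adjusted p of 0.0371. The gene, like *Nptx1* of the preceding list, had been seen in the study's own list of changed genes of these libraries before the lists were written, so its value is not independent evidence. *Fyn*, a kinase of GluN2 subunits, had 132 and 142 against 119 and 142, and *Lin7a*, a scaffold protein, had 81.3 and 108 against 115 and 108. *Dlg2*, which encodes the scaffold PSD-93, had 9.43 and 7.23 against 11.2 and 9.84, the highest log2 fold change of the list at 0.31. *Dlg2* was higher in both mutant mice, with an adjusted p of 0.398.

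Of the 8 genes for the supply of the co-agonists glycine and D-serine, all tested, 6 had lower and 2 had higher means, with a median log2 fold change of −0.19. *Slc7a10*, a transporter of D-serine and other small amino acids, had the highest log2 fold change, 0.79 (standard error 0.18, adjusted p = 0.112 from limma), from 48.5 and 37.8 TPM (WT) and 66.0 and 84.8 TPM (*Kdm3b*+/-). *Dao*, the oxidase that breaks down D-serine in cerebellar astrocytes, had the lowest, −0.63 (standard error 0.18, adjusted p = 0.169), from 10.02 and 11.6 TPM (WT) and 5.83 and 7.46 TPM (mutant). For both the groups did not overlap, and *Slc7a10* was DEX without *Kdm3b*+/- mouse 1 (adjusted p = 0.0459). Astrocytes and Bergmann glia express both genes, and the markers of these cells summed to 1379 and 1220 TPM (WT) and 1132 and 1315 TPM (mutant). Their part in the values was not tested. The enzymes of serine synthesis *Phgdh* and *Psat1* were the most abundant of the list, with 171 and 188 against 163 and 203 for *Phgdh* and 178 and 161 against 125 and 149 for *Psat1*.

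The 3 genes for adenosine deaminases, which edit RNA, overlapped between the genotypes. *Adarb1*, whose product edits the *Gria2* codon shown above, stood at 16.1 and 19.9 TPM (WT) and 14.7 and 17.8 TPM (*Kdm3b*+/-) (log2 fold change −0.14, adjusted p = 0.719 from limma). *Adar* had 23.8 and 31.3 against 22.8 and 24.04, and *Adarb2*, a relative without known activity, was close to the TPM minimum, between 0.782 and 1.35.

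**Figure D5:**
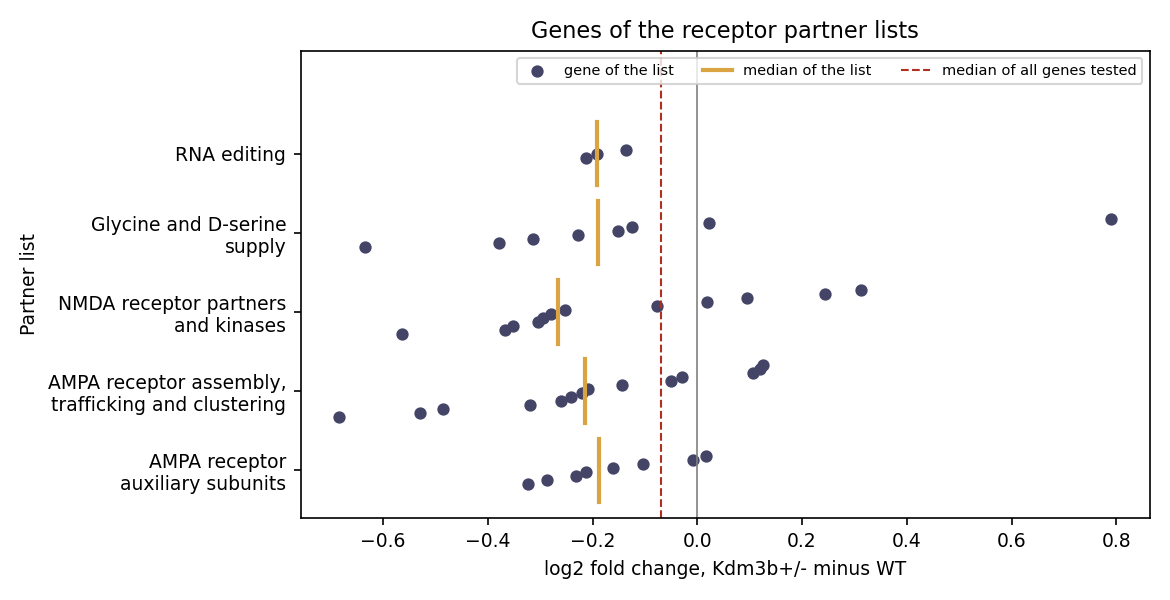
Log2 fold change (*Kdm3b*+/- minus WT) of each tested gene of the 5 partner lists, with the median of each list as a bar and the median of all tested genes as a dashed line at −0.07. The list medians lie between −0.27 and −0.19, and *Slc7a10* stands alone at 0.79.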

How the data were processed

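Reads had been quality-trimmed by the authors before alignment (STAR) and abundance estimation per gene (StringTie), and each mouse has a table of its own. Genome build, annotation, read length and tool versions are not given in the sources used here. The chromosome of 99.5% of the identifiers was that of RefSeq for GRCm38. Only chromosome names were compared, so this does not settle the build. The deposited TPM is scaled to gene length and to 1000000 per library, the deposited FPKM to length and mapped fragments, and the deposited coverage, a signal of reads per exonic base, is not normalized. The study's DESeq2 test needs counts, which these values are not. TPM was summed per NCBI identifier, symbols were found for 24462 identifiers, and aligned bases follow from dividing coverage by FPKM.

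Genotype was the only term in limma version 3.58.1 (lmFit, eBayes with trend; R version 4.3.3) on log2(TPM + 1), which understates changes of low genes. Shares and ratios were compared with two-sided exact permutation tests (SciPy version 1.17.1), whose smallest p is 0.333. The p-values refer to these 4 mice only. In limma the spread of each gene was drawn toward a trend over all tested genes, so its p is not set by that gene's own spread alone. The limma fit was tested on simulated data, in which the spread of a gene was set by its mean level alone. The members and gene lists were chosen with earlier results of these data known.

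Named genes are the members, *Kdm3b*, the 3 most abundant genes, the extremes and any DEX gene of each partner list, and the most abundant gene of each marker list; *Aqp4*, *Mobp* and genes overlapping members were added after their values were seen. Alternatives changed the pseudocount, unit, filter, scaling, row choice, variance model, block, length and GC correction, threshold and libraries. The channel segment of the remaining members is not reported here.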

Additional observations from a re-analysis of the deposited data

How the results depend on the processing

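No member was DEX under any alternative to the test that was run, or with a library left out, and their adjusted p stayed between 0.107 and 0.992. Directions held for *Gria2*, *Grin1* (−0.54 to −0.15 with a library left out), *Grin2a* (0.02 to 0.54) and *Grin3a*. *Grin2c* reversed to 0.00498 on the log2 scale with length and GC correction, with and without the replicate block, and the range of its values with a library left out was −0.61 to 0.15. For *Gria1* that range was −0.69 to 0.28, for *Gria3* −0.52 to 0.16 and for *Gria4* −0.12 to 0.21. The replicate numbers of the labels do not mark shared animals, and deviations of same-numbered mice correlated at 0.121, and at 0.0229 after length and GC correction. With them as a replicate block, 600 genes were DEX in place of 63, all 63 among them, and no member. *Grin1* had an unadjusted p of 0.0192 from limma in that fit (adjusted p = 0.128). In the partner lists that fit called 2 genes of AMPA receptor assembly (*Nptx1*, *Nptxr*), 1 NMDA receptor partner (*Camk2b*) and 2 genes of co-agonist supply (*Dao*, *Slc7a10*), where the fit without the block called 0. With the block and length and GC correction together, 59 genes were DEX, and these partner lists had 0. With a library left out, each of these lists had between 0 and 1, *Slc7a10* without *Kdm3b*+/- mouse 1, and *Nptxr* and *Camk2b* without *Kdm3b*+/- mouse 2. DEX genes numbered 38 with FPKM, 1 without the filter, 37 with eBayes without trend, and between 21 and 188 with a library left out, where the lone library of a group was assumed to vary like the other group. The ratio of *Grin2c* to *Grin2a* differed by −2.00 after length and GC correction, and by −4.59 to −2.50 with a library left out. The cause of these shifts was not tested. Depth limits *Grin2b* and *Grin2d*, and 2 mice per group limit every comparison.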
